A study of Xenopus laevis with 8 samples.

Results

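Of the 21495 probes on the *Xenopus laevis* array, 12 were taken as regulators of blood and endothelial cells. The set was chosen by measured values in its first step: the probes for *SCL* (A_10_P004877) and *aml1* (A_10_P003657) were selected on their high ratios with active EBF3. Every other probe that the array design names as *lmo2*, *hex*, a *runx* or *aml* gene, *gata1* to *gata6* or *fli* was then added by name, whatever its values. This gave 1 probe each for *SCL*, *lmo2*, *aml1*, *hex*, *fli1*, *gata1*, *gata2*, *gata3*, *gata4* and *gata5* and 2 probes for *gata6*. In the annotation of the Xenopus_laevis_v10.1 assembly 10 of the 12 probes had a name, among them *tal1.S* for *SCL*, *lmo2.S*, *hhex.L*, *fli1.S*, *gata1.L*, *gata2.L*, *gata3.S* and *gata5.L*. The 2 *gata6* probes matched *gata6.L* (A_10_P007971) and *gata6.S* (A_10_P006351). The *aml1* probe carries only a clone name in the design, and *aml1* is the name the study uses for it.

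RNA came from animal caps, the ectoderm cut from blastula embryos, here at stage 9. Caps of the active EBF3 arrays with dexamethasone (DEX) came from embryos injected with 1 ng of hGR-XEBF3 mRNA, a fusion of *Xenopus* EBF3 with a hormone-binding domain, and were labeled with cyanine 3 (Cy3). Caps of the DEX control arrays with DEX came from embryos injected with 0.4 ng of hGR mRNA without EBF3 and were also labeled with Cy3. Cyanine 5 (Cy5) held, on all 8 arrays, caps with 1 ng of hGR-XEBF3 mRNA that received no DEX. All embryos also received 0.2 ng of Noggin mRNA, which turns cap ectoderm neural, and DEX was given at 30 μM for 4.5 hours. There were 4 arrays of each kind, in 4 replicate experiments with 1 of each. EBF3 was made from injected mRNA, above whatever the caps make themselves, and the dyes were never swapped.

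SCL, also called Tal1, is a basic helix-loop-helix factor that binds DNA together with an E protein such as E12. With Lmo2 as a bridge, Ldb1 and a GATA factor, it forms a complex that is required for blood formation in vertebrate embryos. Aml1 (Runx1), Hex and Fli1 act in the same early blood and vessel precursors, whereas EBF proteins are best known in B lymphocytes and in neurons. Several of these factors also have neural roles, and Scl, Gata2 and Gata3 mark a class of spinal interneurons in the mouse.

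Each value below is the log2 ratio of Cy3 to Cy5 on an array, and values above 0 stand for more signal with DEX. On the DEX control arrays Cy3 and Cy5 differed in construct and mRNA dose as well as in DEX. Their parts in those ratios cannot be told apart. The array design had 22575 spots, with each probe once, in replicates 1 and 2, and 44407 spots, with each probe printed as 2 spots, in replicates 3 and 4. The scanner software marked 51.8% to 58.9% of spots as well above background for Cy3, and 58.6% to 62.9% for Cy5. A probe was called when limma gave an adjusted p under 0.05 and the mean change was at least 2-fold. In untreated caps the neural markers *sox2*, *sox3* and *ncam* were well above background in Cy5 on 8 of 8 arrays, as were the epidermal markers *foxi1*, *grhl1* and an epidermal type I cytokeratin. With active EBF3, markers of other tissues moved as well. The summed signal of the muscle markers *myod* and *myf5* was 29.5 to 74.8 times as high in Cy3 as in Cy5 on the active EBF3 arrays and 1.14 to 1.79 times on the DEX control arrays. Taken singly, *myod* was 79.6-fold and *myf5* 6.45-fold higher on the active EBF3 arrays. In the DEX control *myod* was 1.86-fold higher and *myf5* 1.51-fold lower, and neither was called. The part of such cells in the values below was not tested. Fewer cells of a kind and less RNA per cell cannot be told apart in these samples.

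On the active EBF3 arrays 6 of the 12 probes were called higher and 0 lower, and these were *SCL*, *lmo2*, *aml1*, *hex*, *gata3* and *gata5*. Among all 21357 probes tested, 5.87% were called, with 3.03% higher. Since the choice of probes used this contrast, the count is a description. The mean log2 ratio of the 12 probes had a median of 2.38, beside 0.08 over all probes. Set against the DEX control arrays, 5 of the 12 were called, all higher. Of all 21197 probes tested there, 3.86% were called, and 2.42% were called higher. The probe that dropped out was *gata3*. The median difference was 2.12 for the 12 probes and -0.08 over all probes. On the DEX control arrays, which the choice did not use, limma called 0 of the 12 probes, and 0 of all 21256 probes (0% called). The methods' t-test also called 0 of the 12 there after adjustment, and 0% of all probes. At an unadjusted p under 0.05 limma gave 3 of the 12, *hex*, *gata1* and *gata6.S*. The share of all probes at that mark is not given here, so the 3 are not read as a result. Of these, *gata1* was well above background in neither channel of any DEX control array.

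**Figure D1:**
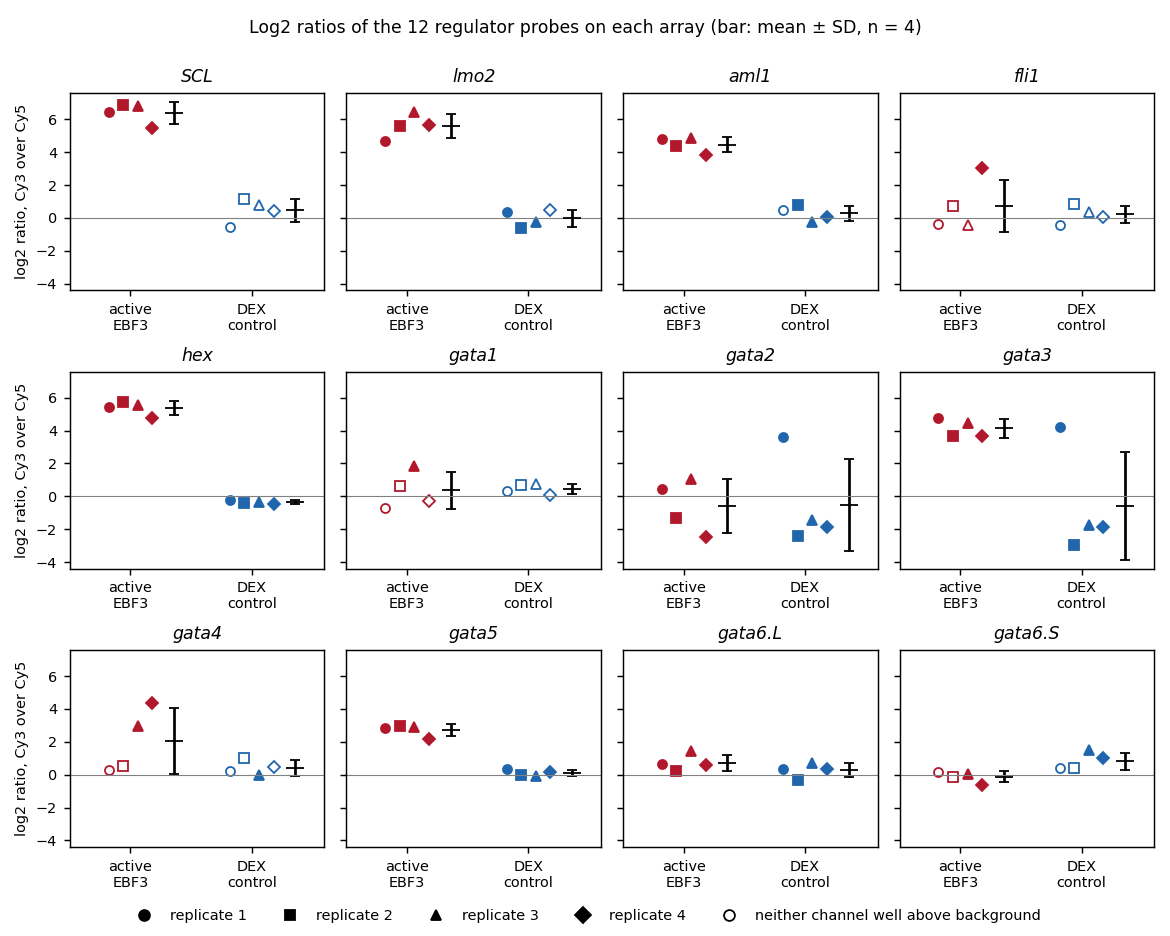
Log2 ratio of Cy3 (with DEX) to Cy5 (untreated hGR-XEBF3) for each of the 12 probes on the 4 active EBF3 arrays (red) and the 4 DEX control arrays (blue), with the mean and SD as a black bar and open symbols where neither channel was well above background. The probes for *SCL*, *lmo2*, *aml1*, *hex* and *gata5* lie higher on each active EBF3 array than on any DEX control array, while *gata2* and *gata3* have 1 DEX control array, replicate 1, far above the others.

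*SCL*, selected on its ratio, had the highest mean ratio of all probes on the active EBF3 arrays in the processed signals, a rank it did not keep with normexp background correction. In replicates 1 to 4 its log2 ratio was 6.42, 6.84, 6.83 and 5.45 on the active EBF3 arrays, against -0.53, 1.14, 0.77 and 0.44 on the DEX control arrays. All active EBF3 arrays were thus far above all DEX control arrays, and replicate 4 was the lowest of them. The mean was 6.39 ± 0.66 with active EBF3, which is 83.6-fold, and 0.45 ± 0.71 in the DEX control (SD, n = 4 each; adjusted p = 0.415 from limma for the DEX control). The size of this ratio rests on a dim denominator. Its Cy3 signal was well above background on 4 of 4 active EBF3 arrays and on 0 of 4 DEX control arrays, whereas Cy5 passed that mark on 2 of 4 active EBF3 arrays, those of replicates 3 and 4, and on 0 of 4 DEX control arrays. With normexp background correction in place of the processed signals, which draws dim signals together, the mean was 3.76, below *lmo2* at 4.99 and *hex* at 4.75. The 2 spots of the probe differed by 0.17 in replicate 3 and by 0.47 in replicate 4 of active EBF3.

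*lmo2* encodes the LIM-only protein that holds SCL and GATA factors together on DNA. Its log2 ratios were 4.69, 5.61, 6.44 and 5.64 on the active EBF3 arrays, against 0.37, -0.62, -0.28 and 0.46 on the DEX control arrays. No array of one kind came near any of the other. The mean was 5.60 ± 0.72 with active EBF3, or 48.4-fold, and -0.02 ± 0.52 in the DEX control (SD, n = 4 each; adjusted p = 0.975 from limma for the DEX control). Unlike *SCL*, this probe was well above background in both channels of 4 of 4 active EBF3 arrays.

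*aml1* encodes a runt-related factor, and its log2 ratios lay close together at 4.81, 4.39, 4.84 and 3.83 with active EBF3. They were 0.51, 0.78, -0.24 and 0.08 in the DEX control. The groups did not overlap, and replicate 4 again had the lowest value with active EBF3. The means were 4.47 ± 0.47 on the active EBF3 arrays, or 22.1-fold, and 0.28 ± 0.45 on the DEX control arrays (SD, n = 4 each; adjusted p = 0.469 from limma for the DEX control). Both channels were well above background on 4 of 4 active EBF3 arrays, and the 2 spots of the probe differed by at most 0.09 on the arrays with 2 spots.

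*hex* encodes a homeobox factor of blood and vessel precursors and of anterior endoderm. Its log2 ratios were 5.45, 5.76, 5.56 and 4.79 with active EBF3, against -0.21, -0.41, -0.35 and -0.49 in the DEX control. The mean was 5.39 ± 0.42 with active EBF3, or 42.0-fold. In the DEX control it was -0.36 ± 0.11 (SD, n = 4), 1.29-fold lower and below 0 on 4 of 4 arrays, which did not pass the correction (adjusted p = 0.201 from limma). Of the probes called with active EBF3, this was the one with the least spread in the DEX control.

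*fli1* encodes an Ets factor of endothelial and blood precursors, and it was not measured well. Only the Cy3 signal of active EBF3 replicate 4 was well above background, and Cy5 was so on 0 of 8 arrays. There the log2 ratio was 3.01, and on the other 3 active EBF3 arrays it was -0.36, 0.70 and -0.45. On the DEX control arrays it ranged from -0.44 to 0.86 (adjusted p = 0.639 from limma). The 2 spots of the probe differed by 0.62 on active EBF3 replicate 4. *gata1*, the GATA factor of red blood cells, was dim in the same way, and of its signals only Cy3 of active EBF3 replicate 3 was well above background. Its log2 ratios ranged from -0.68 to 1.81 with active EBF3 and from 0.06 to 0.76 in the DEX control (adjusted p = 0.220 from limma). *fli1* was called on the active EBF3 arrays only within replicates 3 and 4, of the alternatives run, although its ratios there, -0.45 and 3.01, differed in sign. *gata1* was called in none of the alternatives.

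*gata3* and *gata2* are factors of blood progenitors and lymphocytes, and in the frog embryo both are also expressed in the non-neural ectoderm. *gata3* had log2 ratios of 4.76, 3.65, 4.48 and 3.66 on the active EBF3 arrays. Its mean there was 4.14 ± 0.57 (SD, n = 4), or 17.6-fold. On the DEX control arrays the ratios were 4.22, -2.98, -1.76 and -1.85. Replicate 1 with hGR and DEX thus lay within the range of the active EBF3 arrays, below the 4.76 of the same replicate. The other 3 replicates were well below 0. The mean of the DEX control, -0.59 ± 3.26 (SD, n = 4; adjusted p = 0.824 from limma), stands for none of the arrays. Without replicate 1, *gata3* was called lower in the DEX control, at -2.20 or 4.59-fold lower (adjusted p = 0.0432 from limma). The difference between the groups was 4.73 over all arrays and 6.34 without DEX control replicate 1. With that array left out, a choice made after its value was seen, the difference was called. It was also called without replicate 1 of both kinds of array, with normexp correction on all arrays, and within replicates 3 and 4, where it was 5.88. Since the difference contains the active EBF3 arrays, on which the set was chosen, these calls are a description.

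*gata2* shared this pattern in the DEX control but not the high values with active EBF3. Its log2 ratios were 0.45, -1.33, 1.03 and -2.51 on the active EBF3 arrays, so that the direction changed from array to array. In the DEX control they were 3.60, -2.44, -1.42 and -1.87, and replicate 1 was again the high one. The means were -0.59 ± 1.62 on the active EBF3 arrays and -0.53 ± 2.79 on the DEX control arrays (SD, n = 4 each; adjusted p = 0.814 from limma for the DEX control). Without replicate 1, *gata2* too was called lower in the DEX control, at -1.91 or 3.76-fold lower (adjusted p = 0.0432 from limma). In that fit *SCL* (0.78) and *gata6.S* (0.97) had the same adjusted p and stayed under 2-fold. The *SCL* probe reached it although neither channel was well above background on any DEX control array. Both channels of *gata2* were well above background on 8 of 8 arrays.

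The epidermal markers were also higher on DEX control replicate 1 than on most other arrays. There *foxi1* had a log2 ratio of 0.89, the epidermal type I cytokeratin 0.78, *grhl1* 0.39 and a second type I cytokeratin, not well above background on any array, 0.70. The summed signal of these 4 probes was 1.72 times as high in Cy3 as in Cy5 on that array, the highest of the DEX control arrays, whose lowest was 0.44, and 0.35 to 0.53 times on the active EBF3 arrays. Most of the sum came from the epidermal type I cytokeratin, with a Cy3 signal of 49801 out of 53216 on DEX control replicate 1. On the active EBF3 arrays *foxi1* fell by 3.61 (12.2-fold lower, adjusted p = 0.00820 from limma), whereas *gata3* was high there. The epidermal type I cytokeratin was at -0.78 ± 0.08 on these arrays and stayed under 2-fold. *grhl1*, at -0.23 ± 0.59, and the second cytokeratin, at 0.31 ± 0.41, were not called there (SD, n = 4 each). *foxi1* was at -0.66 ± 1.58 in the DEX control (SD, n = 4), the groups overlapped, and it was not called against the DEX control (adjusted p = 0.100 from limma). In DEX control replicates 2, 3 and 4, where both GATA probes were below 0, *foxi1* was at -2.42, -1.55 and 0.45. The epidermal type I cytokeratin was at 0.26, -1.07 and -0.09 on those arrays. The part of epidermal cells in the *gata2* and *gata3* ratios was not tested.

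**Figure D2:**
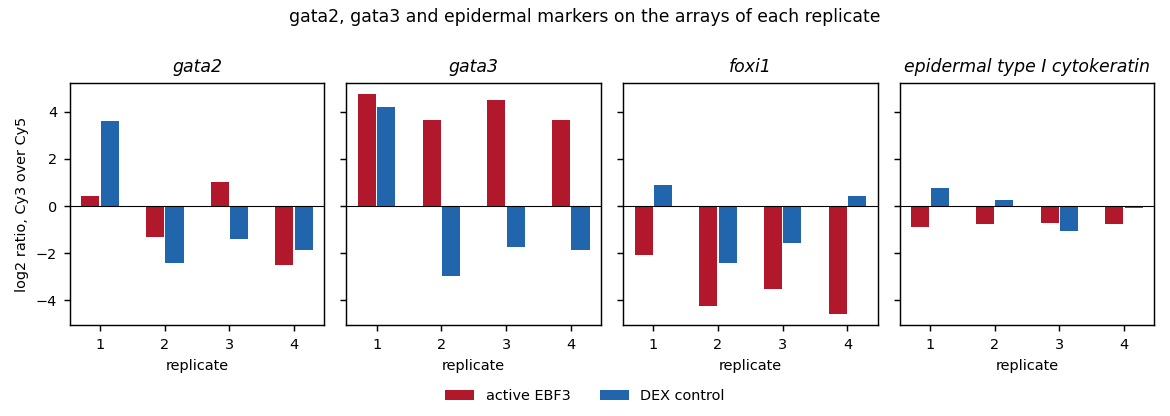
Log2 ratio of Cy3 to Cy5 for *gata2*, *gata3* and 2 epidermal markers on the active EBF3 array (red) and the DEX control array (blue) of each replicate. In DEX control replicate 1 all 4 probes are above 0, with *gata3* at 4.22 and *gata2* at 3.60, while in replicates 2 to 4 both GATA probes are below 0 in the DEX control. In the DEX control *foxi1* is also above 0 in replicate 4, at 0.45, and the cytokeratin in replicate 2, at 0.26.

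*gata4*, *gata5* and *gata6* encode the GATA factors of heart and endoderm. *gata5* was high on each active EBF3 array, at 2.86, 2.96, 2.89 and 2.14, against 0.35, -0.02, -0.08 and 0.14 in the DEX control. Its mean was 2.71 ± 0.38 with active EBF3, or 6.56-fold, and 0.10 ± 0.19 in the DEX control (SD, n = 4 each; adjusted p = 0.706 from limma for the DEX control). It was well above background in both channels of 8 of 8 arrays, and its 2 spots differed by at most 0.06. *gata4* split by array design instead. Its log2 ratio was 0.28 and 0.50 in replicates 1 and 2 of active EBF3, where neither channel was well above background, and 2.99 and 4.39 in replicates 3 and 4, where Cy3 was. Its 2 spots differed by 1.28 and 0.70 on those arrays. In the DEX control it ranged from -0.03 to 1.04 (adjusted p = 0.320 from limma). The difference between the groups was -0.22 within replicates 1 and 2 and 3.48 within replicates 3 and 4, and *gata4* was called on the active EBF3 arrays within replicates 3 and 4 and with the array design as a block.

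The 2 *gata6* probes differed. *gata6.L* was well above background in both channels on 8 of 8 arrays, and its log2 ratios ranged from 0.21 to 1.42 with active EBF3 and from -0.30 to 0.73 in the DEX control (adjusted p = 0.449 from limma for the DEX control), so that the groups overlapped. *gata6.S* was the only one of the 12 probes whose active EBF3 arrays all lay below the DEX control arrays. Its log2 ratios were 0.16, -0.15, 0.05 and -0.60 with active EBF3, against 0.42, 0.42, 1.49 and 0.99 in the DEX control, where it was above 0 on 4 of 4 arrays (adjusted p = 0.180 from limma). The difference of -0.97 was not called. With normexp correction the groups overlapped, at 0.05, -0.10, 0.06 and -0.20 with active EBF3 against 0.06, 0.04, 0.39 and 0.45. The 2 spots of the probe differed by 0.64 in DEX control replicate 3. Cy3 was well above background on 1 of 4 active EBF3 arrays and on 2 of 4 DEX control arrays. Within replicates 3 and 4 it was called higher in the DEX control, at 1.24 (n = 2, adjusted p = 0.00293 from limma). With 2 arrays the spread of a single probe is poorly known, so this call says little about how alike the arrays were.

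The levels in each channel were also compared. Here a level is the log2 of a signal over the median signal of its channel on that array, and only levels of the same probe are compared. *lmo2* was between 6.90 and 7.95 in Cy3 of the active EBF3 arrays and between -1.77 and 1.92 in Cy3 of the DEX control arrays. In untreated caps it was between 1.16 and 2.31 in Cy5 of the active EBF3 arrays and as high as 1.54 in Cy5 of the DEX control arrays. Caps with active EBF3 stood alone at the top, and the ranges of the other 3 conditions overlapped. *hex* also had its highest level there, at 7.43 ± 1.02, and was at 0.17 ± 0.97, 2.05 ± 1.27 and 0.53 ± 1.05 in the other conditions, taken as for *lmo2* (SD, n = 4 each). *SCL* was at 4.78 ± 0.44 in Cy3 with active EBF3 and below the median signal in the other 3 conditions, at -2.50 ± 0.78, -1.60 ± 0.57 and -2.96 ± 1.01. *gata5* was at 5.59 ± 1.13 with active EBF3 and between 2.76 and 2.88 in the other 3 conditions, which differed by far less than their spread.

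Both kinds of array are labeled as holding untreated hGR-XEBF3 caps in Cy5, and whether the 2 arrays of a replicate held the same RNA extract is not given in the sources used here. For some of these probes the Cy5 signal differed between them. For *lmo2* the Cy5 level was higher on the active EBF3 array than on the DEX control array of the same replicate in 4 of 4 replicates, by 0.67 to 3.70 on the log2 scale (by up to 2.66 where both signals were well above background), for *aml1* in 4 of 4 by 1.26 to 2.45, and for *hex* in 4 of 4 by 1.19 to 1.97. *gata3* was higher in 4 of 4 as well, by 0.32 to 1.14, and *gata5* by 0.08 to 0.18. In comparison, between 96.5% and 99.1% of all probes were within 2-fold on the 2 arrays of a replicate. Over the 647 probes called higher on the active EBF3 arrays, the median of this Cy5 difference was between 0.12 and 0.28. On the log2 scale, the Cy3 levels of *lmo2*, *aml1* and *hex* were 4.99 to 9.36 higher on the active EBF3 array of each replicate. Those of *gata3* were 1.32 to 7.37 higher and those of *gata5* 2.05 to 3.08 higher. *SCL* was 6.42 to 8.51 higher in Cy3, while its Cy5 difference ranged from -0.45 to 2.72. Neither channel of *SCL* was well above background on any DEX control array. Several of the other differences were also taken against dim DEX control signals. Cy5 was not well above background there for *lmo2* in replicate 4 and *aml1* in replicate 1. Cy3 was not for *lmo2* in replicates 3 and 4, *aml1* in replicate 1, *hex* in replicates 1 and 2 and *gata3* in replicate 2. The part of the Cy3 signal in the Cy5 signal was not tested. A higher Cy5 signal makes the ratio on the active EBF3 arrays smaller.

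**Figure D3:**
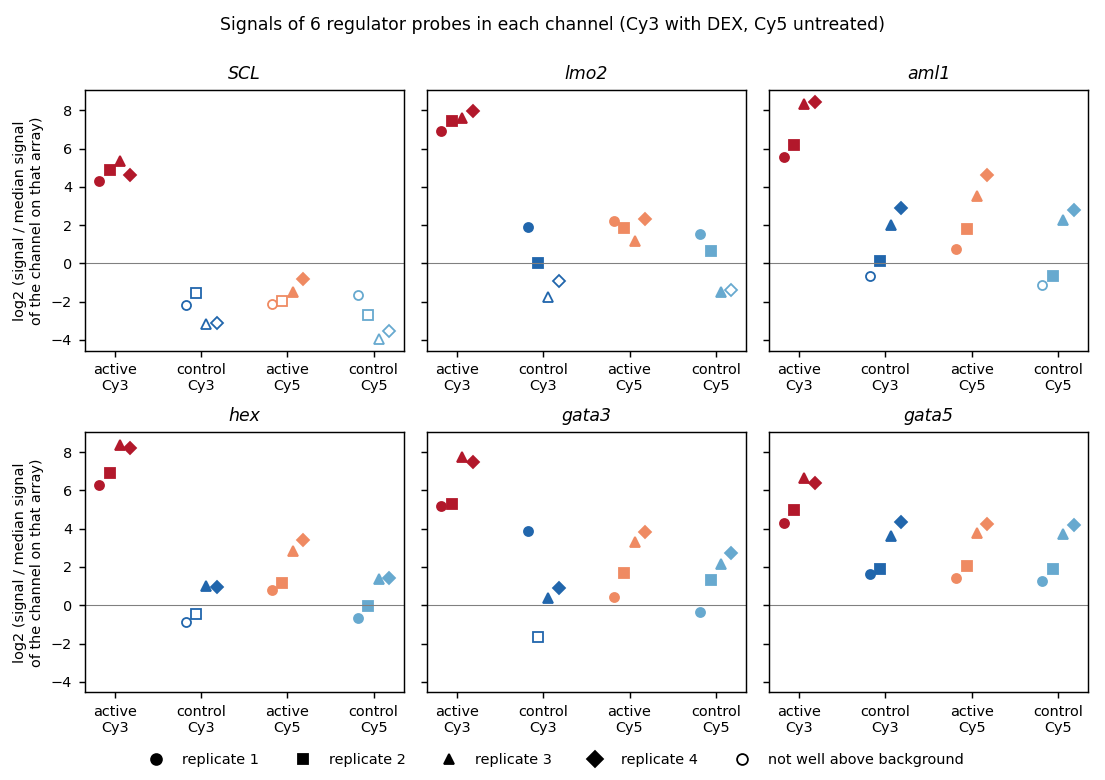
Log2 of the signal over the median signal of the channel on each array for 6 probes, in Cy3 (caps with DEX) and Cy5 (untreated hGR-XEBF3 caps) of the active EBF3 and DEX control arrays, with open symbols where the signal was not well above background. Cy3 of the active EBF3 arrays is the highest condition for all 6, and for *lmo2*, *aml1* and *hex* the Cy5 points of the active EBF3 arrays lie above those of the same replicate in the DEX control.

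A wider list of 34 probes covers partners of SCL, other transcription factors, receptors, signals and products of blood and vessel cells, and lymphoid genes. It was drawn up by gene name with earlier results of these data known. The adjusted p-values of its probes are thus a description of these arrays, not an independent test. On the active EBF3 arrays 2 of the 34 were called higher and 7 lower, beside 3.03% and 2.84% of all probes. The median ratio of the list was 0.06 and that of all probes 0.08. Against the DEX control 1 of the 34 was called higher and 6 lower, beside 2.42% and 1.44% of all probes, with medians of -0.07 for the list and -0.08 for all probes. On the DEX control arrays 0 of the 34 were called. The list therefore had more lower than higher calls. All of the called regulators above were higher, but *SCL* and *aml1* among them were selected on their high ratios, so the 2 sets are not compared.

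Of the partners of SCL in the wider list, *ldb1* and *E12* were not called higher. *ldb1*, whose product joins the complex through Lmo2, fell by 1.07 on the log2 scale with active EBF3 (2.10-fold lower, adjusted p = 0.0323 from limma) and was at 0.04 ± 0.31 in the DEX control (SD, n = 4). It was also called against the DEX control (adjusted p = 0.0497 from limma), and it was not called on the active EBF3 arrays without replicate 2, 3 or 4. The E protein *E12* was at 0.05 ± 0.11 with active EBF3 and at 0.10 ± 0.18 in the DEX control (SD, n = 4 each; adjusted p = 0.808 from limma for active EBF3), with both channels well above background on every array. Among the Ets factors, *elf1* fell by 2.65 (6.29-fold lower, adjusted p = 0.000940 from limma) with active EBF3 and had 0.03 ± 0.57 in the DEX control. Its values were -2.52, -2.77, -2.96 and -2.36 on the active EBF3 arrays, all below the lowest DEX control value of -0.58, and Cy3 was well above background on 2 of these 4 arrays. The 2 *ets1* and 2 *ets2* probes had means between 0.07 and 0.69 with active EBF3 and were not called.

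The Kit pathway, a receptor and its ligand used by blood progenitors and pigment cells, showed the deepest falls of the list. *kit-A* fell by 3.92 on the log2 scale with active EBF3 (15.1-fold lower, adjusted p = 0.00126 from limma), with -3.18, -3.70, -4.40 and -4.40 on the active EBF3 arrays and 0.51, 0.29, -0.16 and -0.44 on the DEX control arrays. The second Kit receptor, *kl1-A*, fell by 3.60 (12.1-fold lower, adjusted p = 0.00143 from limma) and was at 0.05 ± 0.15 in the DEX control (SD, n = 4). Both were also called against the DEX control, at -3.97 and -3.65 (adjusted p = 0.000337 and 0.000230 from limma). Their ligand *kitlg* fell by 2.85 (7.22-fold lower, adjusted p = 0.0132 from limma) and was at -0.53 ± 0.70 in the DEX control, and the groups overlapped. The chemokine receptor *cxcr4* rose by 1.62 (3.08-fold, adjusted p = 0.00852 from limma) and was at 0.09 ± 0.43 in the DEX control. *vegf-A* had 0.90 ± 0.36 (SD, n = 4; adjusted p = 0.0368 from limma) and stayed under 2-fold.

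Of the Krüppel-like and Sox factors, *klf2* fell by 1.63 (log2, adjusted p = 0.0338 from limma) and *biklf* by 2.40 (5.28-fold lower, adjusted p = 0.0421 from limma) with active EBF3. *klf2* was at 0.70 ± 0.74 in the DEX control and was called against it (adjusted p = 0.0264 from limma) but not with the replicate as a block (adjusted p = 0.0634 from limma). *biklf* was at 0.03 ± 0.21 in the DEX control (difference -2.43, adjusted p = 0.0517 from limma). *sox7*, a factor of endothelial cells and endoderm, rose by 1.74 (3.34-fold, adjusted p = 0.0496 from limma), but it was at 0.73 ± 1.45 in the DEX control and the groups overlapped (difference 1.01, adjusted p = 0.718 from limma). *sox17-alpha* was lower, at -2.62 ± 1.63 with active EBF3 (SD, n = 4), and was not called (adjusted p = 0.0576 from limma). Its groups overlapped, and it was called without replicate 1, with median centering and with the authors' value table, among others. *sox17-beta* at -1.19, *sox18-alpha* at -0.37 and *sox18-beta* at 0.25 were not called either. Calls of *klf2*, *biklf*, *kitlg*, *sox7* and *cxcr4* on the active EBF3 arrays were lost without at least 1 replicate, while those of *elf1*, *kit-A* and *kl1-A* were kept without each. Leaving out DEX control replicate 1 alone ended the calls of *cxcr4*, *klf2*, *ldb1* and *kitlg* against the DEX control.

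Products of mature blood and vessel cells and lymphoid genes had no calls, 0 of 6 and 0 of 5 probes. Of all probes, 5.87% were called on the active EBF3 arrays. In groups this small, 0 calls is near that share and says little about these genes. Most of them were dim. The probes for alpha-1 globin and beta-2 globin, for peroxidase, for immunoglobulin J chain and for an immunoglobulin light chain were well above background in neither channel of any array. *pax5*, a partner of EBF in B cells, was well above background in Cy3 on 0 of 8 arrays and in Cy5 on 2 of 8. *spi1*, a factor of myeloid and B cells, was well above background in Cy3 on 2 of 4 active EBF3 arrays and on 0 of 4 DEX control arrays, with a mean of 0.70 ± 0.76 with active EBF3 (SD, n = 4; adjusted p = 0.212 from limma). Alpha-3 globin (0.18 ± 0.66) and *pecam* (0.75 ± 0.44) were well above background on all arrays and were not called (adjusted p = 0.679 and 0.0793 from limma).

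**Figure D4:**
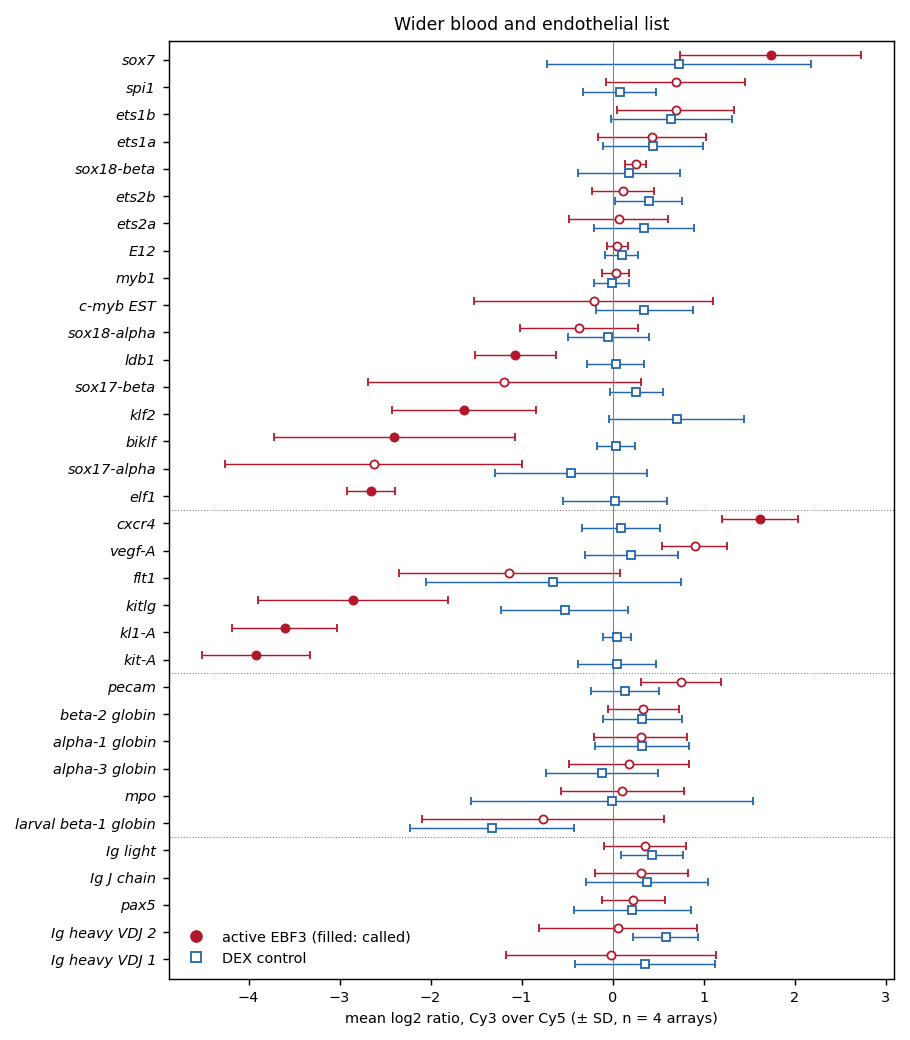
Mean log2 ratio of Cy3 to Cy5 with its SD over 4 arrays for the 34 probes of the wider list, with active EBF3 (red circles, filled where called) above the DEX control (blue squares) for each gene. From the top, the groups between dotted lines are transcription factors and partners, receptors and signals, differentiated products, and lymphoid genes. *kit-A*, at -3.92 with active EBF3, is the lowest. No product or lymphoid gene is called, beside 5.87% of all probes.

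The 5 probes outside the set whose log2 ratios came closest to those of *SCL* over the 8 arrays were the *myod* probe *myod1.L*, *wnt3a.S*, a probe the study names *pcdh8* (A_10_P006112), A_10_P009209 and *nr2f2*. Their root-mean-square differences from *SCL* were 0.67, 0.87, 0.88, 0.93 and 1.01. Within the set, *hex* was at 1.04 with 5 other probes nearer, *lmo2* came next with 7 nearer, and *aml1* was at 1.48 with 20 nearer. This likeness is a description over 8 arrays of a pattern that served to choose the set.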

How the data were processed

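Two-color Agilent arrays were read with Agilent Feature Extraction, version 9.1.3.1 per the labels and 8.1.1.1 for replicate 1 per the file headers. The authors deposited processed intensities from which background was subtracted and whose dyes were balanced by LOWESS on each array, with surrogate values for dim spots and no scaling between arrays. The deposited scanner output also gives mean spot and background intensities and a log10 ratio, and the authors' value table holds log10 ratios, Cy3 over Cy5, with many dim probes left empty (3228 to 6923 per array). The header's multiplier for the well-above-background call was 2.6 in replicates 1 and 2 and 13 in replicates 3 and 4. Precision is limited by how few arrays there are and, where probes are dim, by signal over background. No genome build is given in the sources used here, and coordinates and sequences were not analysed here.

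Processed signals were turned into log2 ratios, Cy3 over Cy5, in R 4.3.3 with limma 3.58.1. Ratios of duplicate spots were averaged without control or non-uniform spots, and arrays were not centered. The well-above-background mark was given to a probe if a share of 0.5 or more of its spots had it. Means were tested against 0, or active EBF3 against DEX control, with lmFit and eBayes, two-sided, and Benjamini-Hochberg adjustment over all probes with a value on each array of the test. The scripts were tested on simulated arrays.

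The 12 probes and the wider list were chosen with earlier results of these data known, so the active EBF3 values of the 12 carry no test. For the same reason the adjusted p-values of the wider list are given as a description. All of the 12 are named, with values on each array for those called in any comparison. Values on each array of *gata2* and *gata6.S*, and on each active EBF3 array of *gata4* and *fli1*, were added after they were seen. All called probes of the wider list are named. *gata6.L* and the other annotation names were matched by gene number or design name. Search words of the list with no probe of that name, such as *lyl1*, *kdr* and *cadherin 5*, were not analysed here.

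Replicate numbers paired the arrays. Over 21197 probes, the correlation of deviations from group means was 0.591, 0.493, 0.366 and 0.574 in same-numbered arrays and -0.339 to 0.0483 otherwise, so the replicate was used as a block in an alternative. Other alternatives were leaving out each replicate, the methods' t-test, normexp correction with an offset of 50 and loess, the authors' value table, median centering, keeping non-uniform spots, a filter on dim probes, other fold thresholds and the array design as a batch. Leaving out DEX control replicate 1 alone was added after seeing the data.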

Additional observations from a re-analysis of the deposited data

Results flagged for a closer look

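In 3 of 24 sets of 4 arrays, 1 array stood apart from the other 3 by more than Dixon's test allows. By chance about 1 in 20 such sets would. The first was *gata2* on DEX control replicate 1, at 3.60 where the other 3 arrays lay between -2.44 and -1.42. The second was *gata3* on the same array, at 4.22 where the others lay between -2.98 and -1.76. The third was *gata5* on active EBF3 replicate 4, at 2.14 where the others lay between 2.86 and 2.96. That array also had the lowest ratio of the 4 for *SCL*, *aml1* and *hex*.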

How the results depend on the processing

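With 4 arrays per group and 2 array designs, dim probes (*SCL* in untreated caps, *fli1*, *gata1*, *gata4*, *gata6.S*) carry the least certain ratios, and dyes were not swapped. The 6 regulators called on the active EBF3 arrays remained 6 without each replicate and under the other alternatives, apart from 5 with the methods' t-test (*lmo2* not called), 5 within replicates 1 and 2, 7 with the array design as a block and 8 within replicates 3 and 4. Of all probes, 1.28%, 0.529%, 7.58% and 13.8% were called in these 4 fits, beside 5.87%. Where the count stayed 6, between 1.62% and 11.5% of all probes were called. The filter on dim probes left 8 of the 12 to test (11.5% of all probes called), and the authors' value table left 9 (10%). *SCL* was well above background only on active EBF3 arrays, so its call under that filter is a description. In active EBF3 against DEX control the count of 5 was 5 to 6 without each replicate, where 1.71% to 3.69% of all probes were called, beside 3.86%. It was 5 with the replicate as a block (4.3% of all probes) and 4 with the authors' value table (6.36%), where *SCL* had too few values. It was 6 with normexp correction (2.24% of all probes), with *gata3* added, and 7 within replicates 3 and 4 (3.21%), with *gata3* and *gata4* added. Within replicates 1 and 2 it was 0, where 0 of all probes were called. In the DEX control the count of 0 was 0 to 2 without each replicate and 3 within replicates 3 and 4 (*gata2* and *gata3* lower, *gata6.S* higher), where 2.31% of all probes were called. The 2 were without replicate 1, where 0.88% of all probes were called, beside 0% with all arrays. The wider list's count on the active EBF3 arrays, 9, was 3 to 11 without each replicate (3 without replicate 4, 4 without replicate 2, 5 without replicate 3), 4 with the methods' t-test, 5 with normexp, 5 at 5-fold, 2 within replicates 1 and 2 and 16 within replicates 3 and 4. The shares of all probes called were 2.86% with normexp and 1.62% at 5-fold, 2.22% to 6.91% without each replicate, and as above for the methods' t-test and the replicates 1 and 2 or 3 and 4. Against the DEX control, 7 became 3 to 4 without each replicate, 3 without DEX control replicate 1 alone and 3 with the methods' t-test. It became 0 within replicates 1 and 2, and 6 with the replicate as a block, which changed no call but that of *klf2*. The shares of all probes called in these fits, in the same order, were 1.71% to 3.69%, 2.95%, 2.44%, 0% and 4.3%, beside 3.86%. No called value changed sign. Over the 12 probes and 3 comparisons, 356 recomputed means moved by less than the SD between arrays and 17 by more. Of those 17, 13 came from normexp correction, under which *SCL* was at 3.76, *aml1* at 3.94, *hex* at 4.75, *gata3* at 3.54 and *gata5* at 2.32 on the active EBF3 arrays. The causes of these changes were not tested.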
